A study of Mus musculus with 6 samples.

Results

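The tripartite motif (TRIM) family was examined as all rows of the deposited expression table whose gene symbol is Trim, digits and at most 1 further letter. This rule gave 40 of the 13706 genes listed. The study measured mRNA of primary mouse dermal fibroblasts by QuantSeq, in which each transcript yields reads next to its poly(A) tail, and set out to find which transcripts follow the loss of YAP and TAZ. Its 6 libraries form 3 groups of 2.

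The first group, KO + H-151, carried Yap1 fl/fl and Wwtr1 fl/fl alleles together with R26-CAG-CreER and received 1 µM H-151, a small-molecule STING inhibitor that the labels spell H-15 once. KO cells, called YTcKO in the labels, had that genotype without H-151. Control cells had Yap1 fl/fl and Wwtr1 fl/fl alleles and no Cre. All 3 groups, control included, were cultured for 72 hr with 1 µM 4OH-Tamoxifen in DMEM-F12 with serum. The Cre is tamoxifen-dependent and driven from ROSA26 with a CAG promoter, so it is not limited to a cell type. Because every group with the genes deleted carried Cre and the control did not, active Cre and the loss of YAP and TAZ cannot be told apart. Nothing in the labels ties the 2 libraries of a group to different animals or cultures, and the p-values then cover only the spread between libraries, which may be technical.

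TRIM proteins are defined by a RING finger, B-box zinc fingers and a coiled coil, and most are E3 ubiquitin ligases: the RING recruits an E2 enzyme, the coiled coil forms dimers, and the C-terminal domain chooses the substrate. Members with a PRY-SPRY domain at the C terminus include many antiviral proteins, which bind viral capsids, antibody-coated particles or components of nucleic acid sensing. Many of these genes are known to be induced by interferon, and several TRIM ligases act back on RIG-I, cGAS or STING, the sensors and adaptor upstream of interferon. YAP (gene Yap1) and TAZ (gene Wwtr1) are coactivators that reach DNA through TEAD factors.

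Levels are given in scaled CPM, reads scaled to an effective library size by the authors; as 3' tags they do not grow with transcript length, so that levels of different genes could be set side by side. Depth ran between 12444986 and 15308100 reads per library over the genes listed, and 1 read was worth 0.0625 to 0.0871 scaled CPM. Wwtr1 stood at 3.07 and 4.00 scaled CPM in KO + H-151, 4.79 and 5.03 in KO, and 213 and 218 in control. Yap1 stood at 45.3 and 42.4 in KO + H-151, 66.4 and 68.3 in KO, and 122 and 128 in control; whether its remaining tags come from the deleted allele was not tested. All 10 fibroblast markers, Col1a1, Col1a2 and Pdgfra among them, were in the table. Their summed levels were 25800 to 27600 scaled CPM in KO + H-151, 39500 to 41600 in KO and 34700 to 35200 in control. Pdgfra was lowest in KO, at 144 and 140 in KO + H-151, 65.8 and 70.3 in KO, and 157 and 155 in control. In KO against control 3 (30%) rose and 1 (10%, Pdgfra) fell (limma, adjusted p under 0.05), beside 18.2% and 14.2% of all genes. In KO + H-151 against KO 4 (40%) rose and 6 (60%) fell, beside 19.4% and 21.4%. Macrophage markers were present too, 16 of 16 including Ptprc, Adgre1, Csf1r and Itgam, and their summed level was 3580 to 4380 scaled CPM in KO + H-151, 1750 in both KO libraries and 1410 to 1640 in control. Endothelial markers (8 of 8) summed to 23.1 to 27.4 scaled CPM in KO + H-151, 18.3 to 19.9 in KO and 21.3 to 24.1 in control. Single markers moved in both directions: in KO against control 2 (25%, Kdr and Erg) rose and 4 (50%) fell, the defining Pecam1 and Cdh5 among them. In KO + H-151 against KO 4 (50%) rose and 1 (12.5%, Erg) fell. The shares of all genes are those given for the fibroblast markers. The 3 T cell markers listed of 8, without the defining Cd3e and Cd3g, summed to 3 to 3.40 scaled CPM in KO + H-151, 6.96 to 7.83 in KO and 3.20 to 3.96 in control. None of the defining keratinocyte and skeletal muscle markers was among the genes listed. In bulk RNA, fewer cells of a type and less RNA per cell cannot be told apart.

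The summed level of the TRIM transcripts was higher in KO cells than in either other group. The 40 members summed to 1278 and 1266 scaled CPM in KO + H-151, 2683 and 2654 in KO, and 1306 and 1305 in control. In control cells the family was led by Trim35, Trim28 and Trim56. Trim35, a PRY-SPRY protein that binds pyruvate kinase, alone made up 21.2% of the family sum in KO + H-151, 9.40% in KO and 21.1% in control. In KO cells Trim56 and Trim25 took the first places, with 15.1% and 14.6% of the sum, and Trim35 came next. Over all libraries 4 members had a mean of at least 100 scaled CPM, 23 had 10 to 100, 11 had 1 to 10 and 2 were below 1. The median member mean was 27.8 scaled CPM, against 21.7 over all genes listed.

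In KO against control, 16 of 40 members rose and 4 fell (limma, Benjamini-Hochberg adjusted p under 0.05 over 13648 genes tested). Among all genes tested, 18.2% were called higher and 14.2% lower. A change of at least 2-fold was called for 14 members, all higher in KO, beside 5.71% of all genes. On this scale, log2(scaled CPM + 1), 0 members fell as far, beside 1.52% of all genes. Trim16 was just short of it at -0.99, while its KO mean was 0.475 times its control mean. The other 20 members did not pass the test. The members' median log2 difference was 0.07, against -0.01 over all genes, and the differences ran between -0.99 and 4.28. All 40 members were tested, but Trim6, Trim14, Trim30c and Trim36 passed the filter on low values (at least 1 scaled CPM in 2 libraries) only because of the KO libraries. Of the other 36 members, 12 rose and 4 fell. Of the 3 T cell markers listed, Trac and Lck rose too; their part in these values was not tested. Scaling each library to its total reads moved the median of all genes to -0.16 and the members' calls to 15 higher and 10 lower, and under median scaling and quantile normalization 16 and 6, and 15 and 6, were called.

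**Figure D1:**
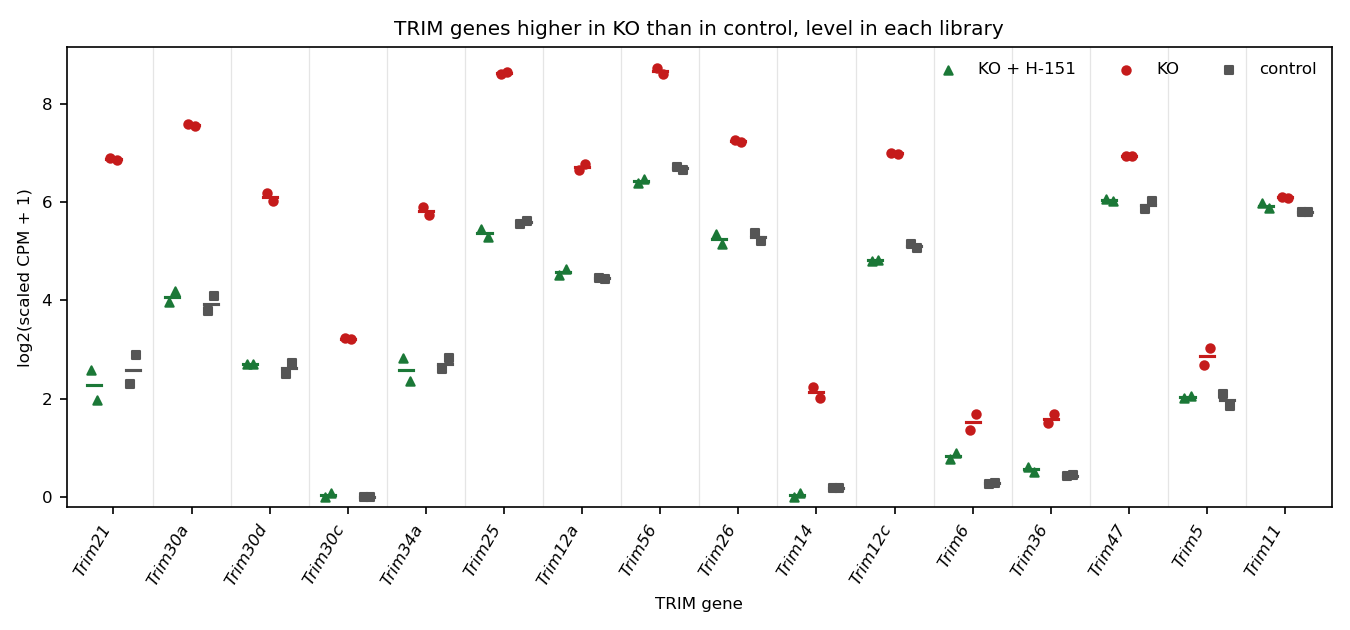
Levels in each library of the 16 TRIM genes called higher in KO, on a log2 axis of scaled CPM + 1, with KO + H-151, KO and control points side by side for each gene and a bar at each group's mean. In each of the 16 genes both KO points lie above both control points, most widely in Trim21 at the left, with 119 and 114 scaled CPM in KO against 3.92 and 6.41 in control.

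Members were grouped by domain layout and by role. The layouts come from a list of gene names and were not checked on protein sequences. That holds for Trim12a too, which was counted as PRY-SPRY. Of 21 members grouped as PRY-SPRY 13 rose and 1 fell, with a median log2 difference of 1.00. Over all genes tested, 18.2% were called higher and 14.2% lower. Members without a RING (Trim14, Trim16 and Trim44) or with a COS box (Trim36 and Trim46) were grouped apart, whatever their C-terminal domain. Of these, Trim14 and Trim36 rose and Trim16 fell. Of 15 members listed for antiviral or innate-sensing roles 13 rose and none fell, with a median of 1.98; the remaining 2, Trim23 and Trim65, had log2 differences of -0.34 and -0.26 that missed the threshold. Of the 25 members not on this list 3 rose and 4 fell (Trim16, Trim27, Trim32 and Trim59), with a median of -0.03. The list may be incomplete, and these counts depend on which genes it names. Without Trim6, Trim14, Trim30c and Trim36, 11 of 19 PRY-SPRY members rose and 1 fell, 10 of 12 antiviral or innate-sensing members rose, and 2 of the 24 others rose and 4 fell. These lists were written with earlier results of these data known, so the counts describe the genes and are not independent evidence.

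Among regulators of RNA and DNA sensing, Trim25 and Trim56 carried the most tags. Trim25, which ubiquitinates in the RIG-I pathway and is also a ligase for the ubiquitin-like protein ISG15, was at 43.0 and 38.2 scaled CPM in KO + H-151, 385 and 397 in KO, and 45.9 and 48.1 in control. Trim56, an RNA-binding antiviral ligase also reported to act on cGAS and STING, was at 82.9 and 87.9 in KO + H-151, 419 and 387 in KO, and 104 and 99.2 in control. For both genes the KO libraries were far above the other 4. Trim25 was 8.31-fold and Trim56 3.96-fold higher in KO than in control as ratios of means, with fitted log2 differences of 3.03 ± 0.08 (SE, adjusted p = 1.79e-14) and 1.98 ± 0.07 (adjusted p = 1.17e-12). Of the 1363 scaled CPM by which the family sum of KO exceeded that of control, Trim25 supplied 25.2% and Trim56 22.1%.

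Trim21, the cytosolic Fc receptor that directs antibody-coated virus to the proteasome, showed the widest difference of the family on the log2(scaled CPM + 1) scale. It was at 4.97 and 2.94 scaled CPM in KO + H-151, 119 and 114 in KO, and 3.92 and 6.41 in control. The KO + H-151 and control libraries overlapped, and KO was 22.6-fold above control (log2 difference 4.28 ± 0.20, adjusted p = 3.31e-11). By level it was 31st of 40 in control and 9th in KO. Trim26, a PRY-SPRY ligase reported to act on interferon-beta induction, was at 39.7 and 34.5 scaled CPM in KO + H-151, 152 and 149 in KO, and 40.5 and 35.7 in control. Its KO libraries were 3.94-fold above control (log2 difference 1.95 ± 0.09, adjusted p = 3.71e-11), while KO + H-151 and control overlapped.

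Trim14 has no RING and serves as an adaptor of the mitochondrial RNA-sensing platform around MAVS. It was nearly absent outside KO, at 0 and 0.063 scaled CPM in KO + H-151, 3.74 and 3.07 in KO, and 0.142 and 0.144 in control, that is 1 read in KO + H-151, 79 in KO and 4 in control. KO exceeded control 23.8-fold by means, and the log2 difference on the scale with 1 added was 1.94 ± 0.22 (adjusted p = 3.24e-06). Trim14 passed the filter on low values only through the KO libraries, where it is high. Its exons overlap those of Nans on the other strand; Nans was at 34.2 to 43.4 scaled CPM in all libraries, and the strand setting of the counting is not given in the sources used here.

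A run of TRIM genes lies on chromosome 7. Between Trim6 and Trim30d, at chr7:104218793-104507849 of GRCm38, the GENCODE annotation has 10 protein-coding genes in 289 kb, every one a TRIM gene. Of these, 8 were in the table and all 8 rose in KO, by 0.89 to 3.64 on the log2 scale; without Trim6 and Trim30c, which passed the filter only through the KO libraries, 6 of 6 rose. Trim34b and Trim30b had no value. The closest flanking genes in the annotation are olfactory receptor genes, none of which was in the table. Trim21 lies on the same chromosome, 1653 kb before the cluster, and 9 of the 13 members on chromosome 7 rose. On chromosome 11, which holds 8 members, 3 rose. Over all genes tested 18.2% were called higher in KO, and the part of location was not tested.

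**Figure D2:**
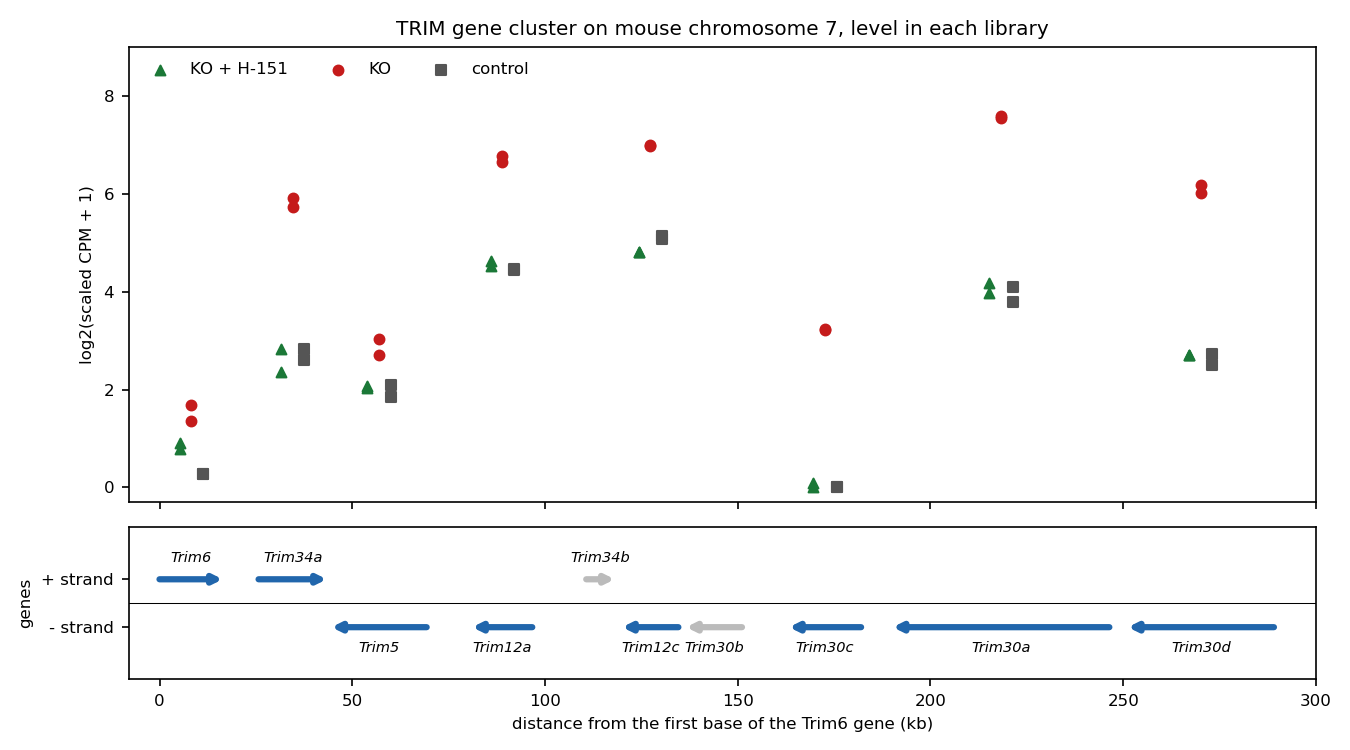
The upper panel gives log2(scaled CPM + 1) of the 8 listed cluster genes in each library against the distance in kb from the first base of Trim6, with KO + H-151 points drawn slightly left and control points slightly right of the gene's centre; the lower panel draws all 10 genes by strand, in grey those not in the table (Trim34b, Trim30b). KO points stand above the other 2 groups at each of the 8 genes, between Trim6 at 1.57 and 2.21 scaled CPM and Trim30a at 192 and 187.

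Trim30a, known in the mouse as a brake on Toll-like receptor signalling that promotes loss of TAB2 and TAB3, was the most abundant of the cluster in KO. It was at 14.6 and 17.2 scaled CPM in KO + H-151, 192 and 187 in KO, and 12.7 and 15.998 in control. Its neighbour Trim30d was at 5.55 and 5.50 in KO + H-151, 71.6 and 64.0 in KO, and 4.70 and 5.62 in control. In both genes KO + H-151 and control overlapped, and KO exceeded control 13.2-fold and 13.1-fold (log2 differences 3.64 ± 0.11 and 3.48 ± 0.14, adjusted p = 1.86e-13 and 4.81e-12). Trim30c was at 0 and 0.063 scaled CPM in KO + H-151, 8.45 and 8.26 in KO, and 0 in both control libraries. With 194 reads in KO and 0 in control, it was at least 77.7-fold higher in KO against a floor of 3 reads per group, which covers counting error only.

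Trim34a, the mouse relative of human TRIM34, a retroviral capsid binder, was at 6.08 and 4.13 scaled CPM in KO + H-151, 58.9 and 52.4 in KO, and 5.06 and 6.13 in control. Trim12a and Trim12c belong with Trim5 to the mouse relatives of primate TRIM5, which restricts retroviruses by their capsids. Trim12a was at 22.02 and 23.8 scaled CPM in KO + H-151, 100.04 and 109 in KO, and 21.0 and 20.6 in control. Trim12c was at 27.0 and 27.2 in KO + H-151, 127 and 125 in KO, and 34.3 and 32.6 in control. Only for Trim34a did the KO + H-151 and control libraries overlap: those of Trim12a were slightly higher and those of Trim12c lower than control. KO exceeded control 9.96-fold for Trim34a, 5.02-fold for Trim12a and 3.77-fold for Trim12c, and the adjusted p was 2.22e-10, 7.53e-12 and 1.82e-11 (log2 differences 3.11 ± 0.17, 2.27 ± 0.09 and 1.88 ± 0.08).

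The other cluster genes were weakly expressed. Trim6, which in human cells makes unanchored ubiquitin chains that activate IKK-epsilon, was at 0.719 and 0.875 scaled CPM in KO + H-151, 1.57 and 2.21 in KO, and 0.214 and 0.216 in control. The groups did not overlap, and the log2 difference of KO to control was 1.24 ± 0.22 (adjusted p = 0.000407) on 44 reads in KO and 6 in control. Trim6 passed the filter only through the KO libraries. Trim5 had 3.07 and 3.19 scaled CPM in KO + H-151, 5.49 and 7.15 in KO, and 3.28 and 2.59 in control. Its KO libraries were above the other 4, with a log2 difference to control of 0.89 ± 0.19 (adjusted p = 0.00197).

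Near-identical copies limit how firmly tags can be assigned within the cluster. Of all 50-base words in the last 400 bases of the annotated transcripts, 39.3% of those of Trim5, 24.6% of Trim34a, 19.2% of Trim30d and 18.9% of Trim12c occur in another gene. Trim5 shares them with Trim12c and Gm4992, and Trim12c with Trim5, Gm20554 and Gm27995. Trim34a shares them with Trim34b, and Trim30d with Trim30a and Trim30c. For the ends of Trim12a, Trim30a and Trim6 none does. These 3 rose as well, though Trim6 passed the filter on low values only through the KO libraries. Transcripts of Trim30a nevertheless hold end words of Trim30d. How the authors counted reads that match several genes is not given in the sources used here.

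The stretches around the interferon-response core are shown because 8 of the 13 rising members with a promoter entry carry it near their start, against 1 of the 18 other members with an entry. Promoters of 300 bases (250 before to 50 after the start) are from RefSeq, build GRCm38.p6, printed 5′ to 3′ on the strand of the gene. Capitals mark the letters GAAA, any 2 bases and GAAA again, or their reverse complement where the match lies on the opposite strand; in Trim21 and Trim26, 2 matches overlap.
Trim21, chr7:102565447-102565476: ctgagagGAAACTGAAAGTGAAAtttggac
Trim26, chr17:36836961-36837026: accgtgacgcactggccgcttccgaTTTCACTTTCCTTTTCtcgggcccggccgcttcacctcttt
Trim34a, chr7:104244457-104244486: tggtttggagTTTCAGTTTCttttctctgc
Trim5, chr7:104288121-104288180: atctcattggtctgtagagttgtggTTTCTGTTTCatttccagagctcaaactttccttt
Trim12c, chr7:104353344-104353403: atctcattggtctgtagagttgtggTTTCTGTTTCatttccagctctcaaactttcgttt
Trim30a, chr7:104465195-104465254: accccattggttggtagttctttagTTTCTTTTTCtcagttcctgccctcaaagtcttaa
Trim30d, chr7:104507856-104507915: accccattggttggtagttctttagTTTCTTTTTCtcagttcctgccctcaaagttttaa

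Of the 16 members that rose, 13 had a promoter entry, and 8 of these (61.5%) held the core: Trim5, Trim12a, Trim12c, Trim21, Trim26, Trim30a, Trim30d and Trim34a. Among the other members 1 of 18 (5.56%) held it, Trim2, and over all genes of the promoter table the share was 3.99%. The copies are not independent. The 60-base window of Trim5 is identical to that of Trim12a in all 60 bases and to that of Trim12c in 57, and those of Trim30a and Trim30d share 59. Across the whole aligned promoters Trim5 and Trim12c were 82.2% identical and Trim30a and Trim30d 90.8%. Trim25 and Trim56 held no match in this window, nor did Trim30c, Trim6 and Trim47, while Trim5, with a log2 difference of 0.89, held one. The TEAD core GGAATG on either strand stood in 15.4% of the members that rose, 16.7% of the others and 16.6% of all genes. A match is a string of letters and not a measured binding site.

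**Figure D3:**
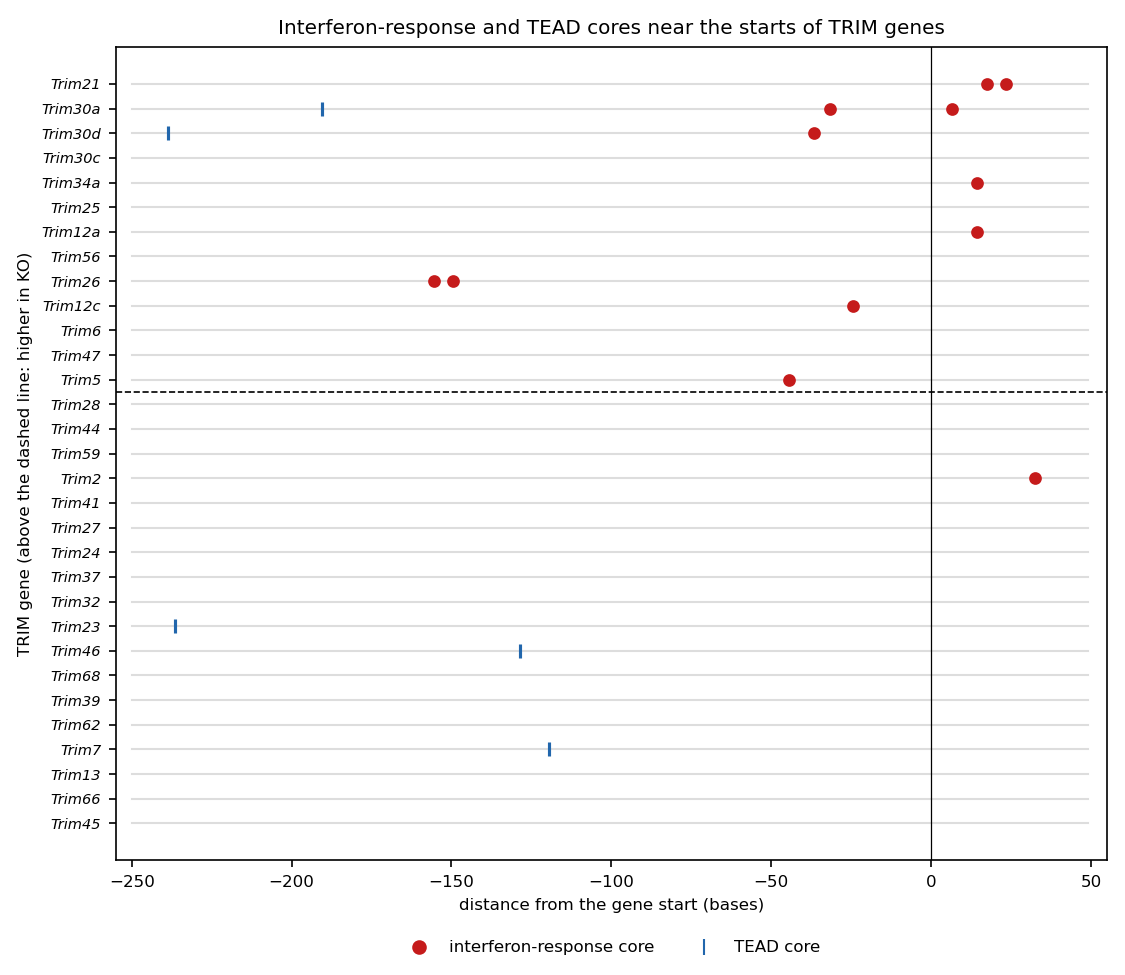
Position of each match of the interferon-response core (red points) and the TEAD core (blue bars) in bases from the gene start, for the 31 TRIM genes with a promoter entry, ordered by their difference between KO and control within the genes called higher in KO (above the dashed line) and by level below it. Red points gather in the upper part, in 8 of 13 genes, against 1 of 18 below the line, while blue bars appear in 2 and 3 genes.

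Outside the antiviral list Trim47, Trim36 and Trim11 rose. Trim47, a PRY-SPRY protein, was at 66.0 and 64.1 scaled CPM in KO + H-151, 122 and 121 in KO, and 56.6 and 63.7 in control. All 3 groups were apart, narrowly so for KO + H-151 and control, and KO was 2.01-fold above control (log2 difference 1.00 ± 0.08, adjusted p = 3.53e-08). Trim47 overlaps Trim65 on the same strand, and Trim65 did not rise in KO. Trim36, a microtubule-binding COS-box protein, was at 0.523 and 0.438 scaled CPM in KO + H-151, 1.83 and 2.21 in KO, and 0.356 and 0.360 in control. KO was 5.65-fold above control by means, and the log2 difference on the scale with 1 added was 1.15 ± 0.22 (adjusted p = 0.000645) on 47 reads in KO and 10 in control. Its 3 groups did not overlap, and Trim36 passed the filter on low values only through the KO libraries. Trim11, implicated in clearing misfolded proteins, had 67.8 and 66.9 scaled CPM in KO and 54.6 and 54.98 in control, a rise of 0.29 ± 0.08 (adjusted p = 0.00958). The call of Trim11 was lost when any one KO or control library was left out (adjusted p = 0.0507 to 0.0708), under total-count scaling (log2 difference 0.13, adjusted p = 0.195), under quantile normalization (0.14, adjusted p = 0.173) and without a variance trend (adjusted p = 0.0507).

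Trim16 moved the other way. This member lacks a RING and takes part in the removal of damaged lysosomes together with galectin-3. It was at 16.3 and 17.4 scaled CPM in KO + H-151, 8.01 and 7.84 in KO, and 17.2 and 16.1 in control. The KO libraries were lowest, and KO + H-151 and control overlapped. The log2 difference of KO to control was -0.99 ± 0.13 (adjusted p = 1.96e-05). It shares 27.1% of its end words with Fbxw10, which overlaps it on the same strand and was at 0.721 to 1.501 scaled CPM.

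The remaining falls were small. Trim32, an NHL-repeat ligase mutated in a limb-girdle muscular dystrophy, was at 23.8 and 24.9 scaled CPM in KO and 35.1 and 35.5 in control (log2 difference -0.52 ± 0.10, adjusted p = 0.000609). Trim27 had a log2 difference of -0.27 ± 0.09 (adjusted p = 0.025), and Trim59, anchored in the endoplasmic reticulum membrane, one of -0.31 ± 0.10 (adjusted p = 0.0283). The call of Trim27 was lost without any one KO or control library (adjusted p = 0.0904 to 0.121), with DESeq2 (0.106) and without a variance trend (0.0511). That of Trim59 was lost without KO replicate 2 (adjusted p = 0.292), control replicate 1 (0.119) or control replicate 2 (0.0999), with DESeq2 (0.0753) and without a variance trend (0.12).

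**Figure D4:**
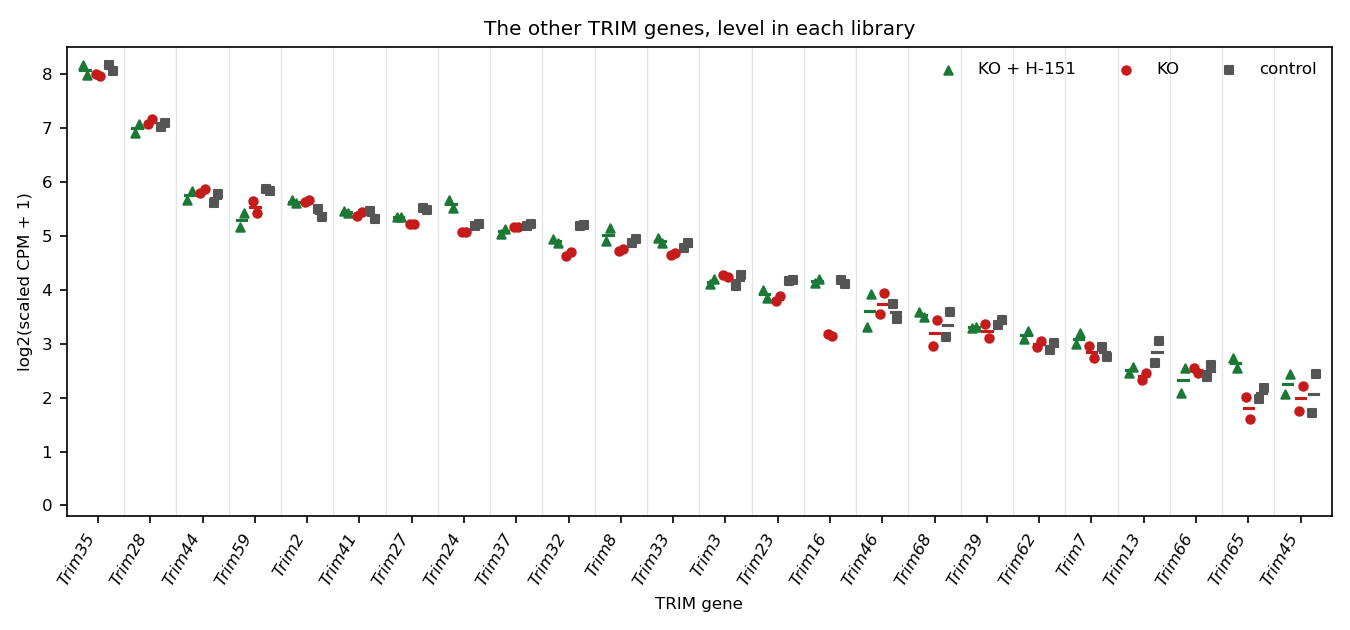
Levels in each library of the 24 TRIM genes not called higher in KO, on a log2 axis of scaled CPM + 1, with KO + H-151, KO and control points side by side and a bar at each group's mean, ordered by mean level. Trim16 has its KO points at 8.01 and 7.84 scaled CPM, below the other 4 at 16.1 to 17.4, and Trim35 leads at 248 to 287.

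The chromatin-bound PHD-bromodomain members were not called in KO. Trim28, the scaffold that KRAB zinc-finger proteins use to recruit heterochromatin enzymes, was at 133 and 142 scaled CPM in KO and 129 and 135 in control, with a log2 difference of 0.06 (95% interval -0.10 to 0.22). Trim24, a reader of acetylated histones, Trim33, a cofactor of SMAD proteins, and Trim66 had log2 differences of -0.13, -0.15 and 0.02. Among 13 partners of the TRIM28 complex, 1 (7.69%, Cbx1) rose and 4 (30.8%: Cbx3, Chd4, Dnmt1 and Uhrf1) fell, with a median of -0.18, beside 18.2% and 14.2% of all genes. Trim35, the most abundant member in control, had 253 and 248 scaled CPM in KO and 287 and 264 in control (log2 difference -0.13, 95% interval -0.29 to 0.02).

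With the STING inhibitor most members listed for antiviral or innate-sensing roles fell below their level in untreated KO cells. In KO + H-151 against KO, 15 members fell and 4 rose, beside 21.4% of all genes called lower and 19.4% higher. At least 2-fold, 12 fell and 1 rose, against 6.35% and 3.14% of all genes. The median log2 difference was -0.11, against 0.02 over all genes, with a range of -4.60 to 1.00. Of the 36 members that passed the filter without the KO libraries, 11 fell and 4 rose. Scaled to total reads the calls were 15 lower and 9 higher, with the median of all genes at 0.18, and quantile normalization gave 15 and 7. Both comparisons use the same KO libraries.

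The largest falls were in genes of the antiviral list. The log2 difference of KO + H-151 to KO was -4.60 ± 0.20 for Trim21 (adjusted p = 1.26e-11), -3.50 ± 0.11 for Trim30a (adjusted p = 2.55e-13), -3.39 for Trim30d and -3.24 ± 0.08 for Trim25 (adjusted p = 5.82e-15). It was -3.23 for Trim34a, -2.22 for Trim56, -2.18 for Trim12c, -2.14 for Trim12a and -1.99 for Trim26. Smaller differences were -1.03 for Trim36, -0.89 for Trim47, -0.82 for Trim5 and -0.68 for Trim6, and Trim11 was not called, at -0.17 (adjusted p = 0.105). All 8 cluster genes of chromosome 7 fell, beside 21.4% of all genes called lower. Without Trim6 and Trim30c, which passed the filter only through the KO libraries, 6 of 6 fell. For the genes with a single read in KO + H-151, KO was 261-fold higher in Trim30c (95% counting interval 46.4 to 1.04e+04) and 106-fold higher in Trim14 (18.6 to 4.26e+03), where the interval covers counting error only.

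By layout, 12 of 21 members grouped as PRY-SPRY fell and 1 rose, beside 21.4% of all genes called lower and 19.4% higher. Of the members listed as antiviral or innate-sensing 13 of 15 fell and Trim65 rose. Among the 25 members not on this list 2 fell and 3 rose, and among the 24 of them that passed without the KO libraries 1 fell and 3 rose. The lists were written with earlier results of these data known, so these counts are not independent evidence. Without the members that passed the filter only through the KO libraries, 10 of 19 PRY-SPRY members and 10 of 12 antiviral or innate-sensing members fell, and 1 rose in each. Macrophage markers moved the other way here: all 16 were called higher in KO + H-151 than in KO, with a median log2 difference of 1.14. In KO against control 4 of those 16 (25%) rose and 2 (12.5%) fell, beside 18.2% and 14.2% of all genes, with a median of 0.17. The part of these markers in the TRIM values was not tested. The call of Trim5 was lost without KO replicate 2 (adjusted p = 0.0545), and that of Trim6 without KO + H-151 replicate 1 (0.112) or 2 (0.0561) and with DESeq2 (log2 difference -1.26, adjusted p = 0.153).

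The 4 members that rose with H-151 were Trim16, Trim65, Trim24 and Trim8. Trim16 rose by 1.00 ± 0.13 (adjusted p = 1.36e-05). Trim65, a ligase of the RNA sensor MDA5, was at 5.68 and 4.88 scaled CPM in KO + H-151, 3.05 and 2.04 in KO, and 2.92 and 3.53 in control. KO + H-151 was thus above all 4 other libraries, and its difference to KO was 0.84 ± 0.20 (adjusted p = 0.00346, and 0.0572 without KO replicate 2). Trim24 was at 49.5 and 45.0 in KO + H-151, 32.7 and 32.4 in KO, and 35.3 and 36.2 in control, and rose against KO by 0.52 ± 0.09 (adjusted p = 0.000243). Trim8 rose by 0.29 ± 0.11 (adjusted p = 0.0421). Its call was lost without KO + H-151 replicate 2 (0.312), either KO library (0.115 and 0.156) or either control library (0.0545 and 0.055), with DESeq2 (0.128), without a variance trend (0.0831) and with only the groups compared (0.0566).

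**Figure D5:**
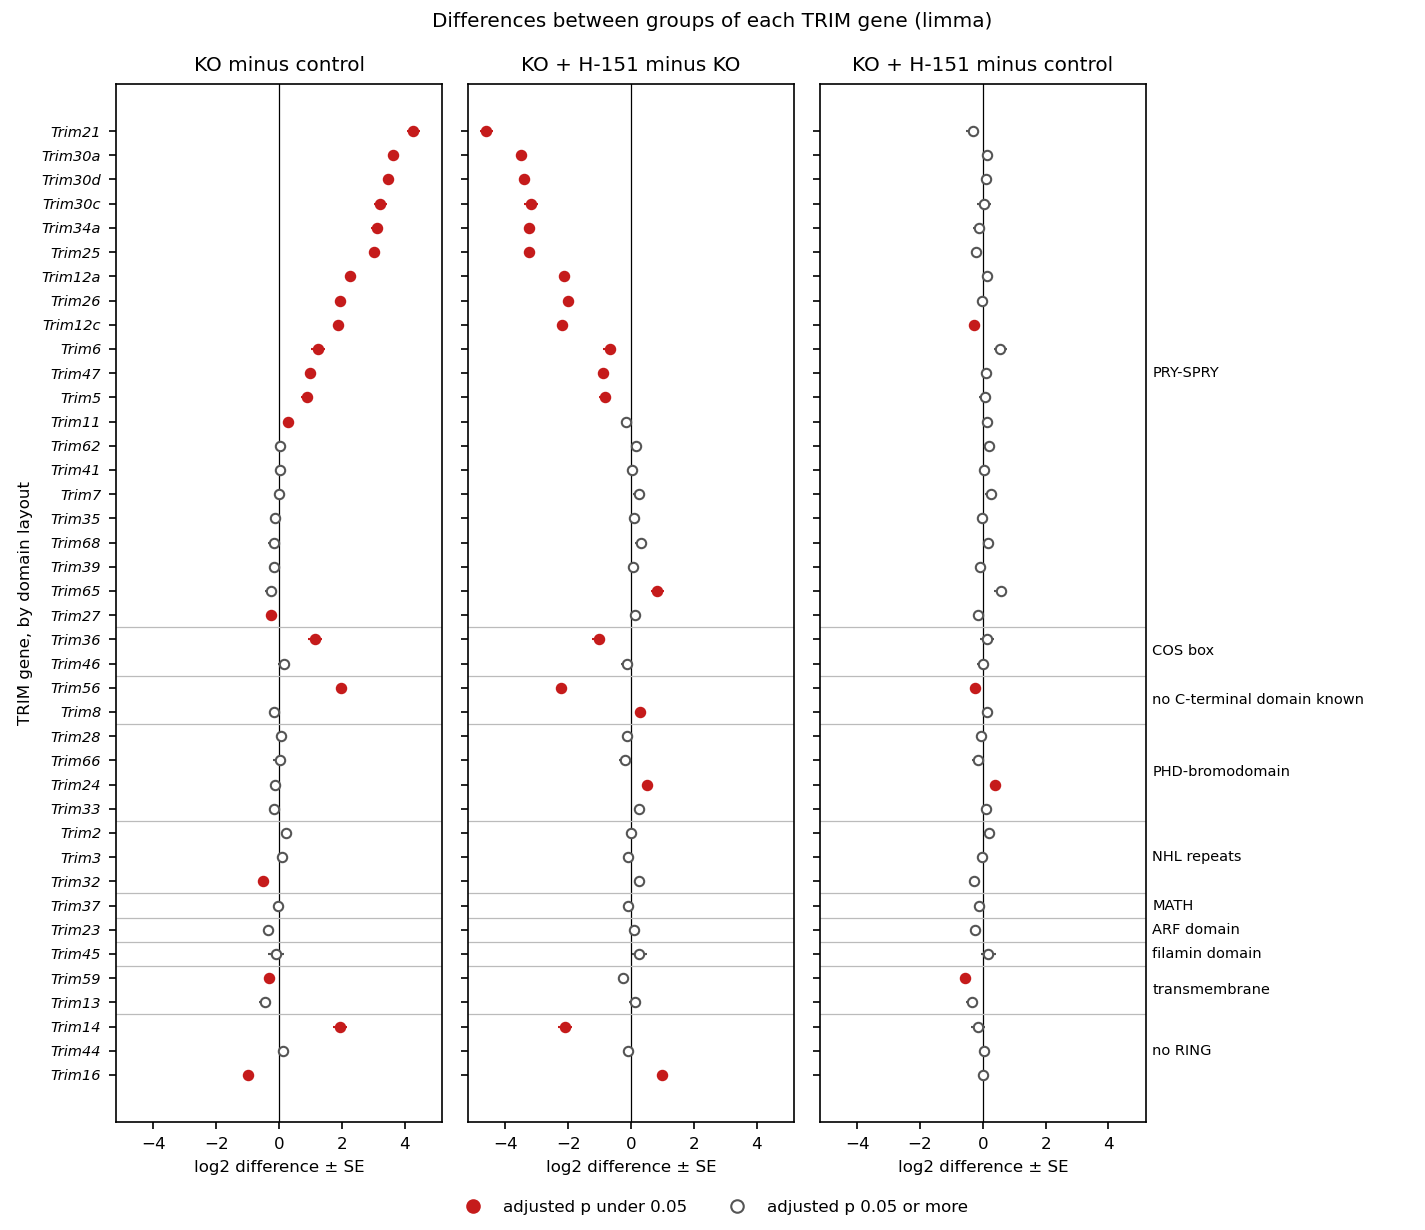
Fitted log2 differences ± SE (limma, 2 libraries a group) of all 40 TRIM genes, grouped by domain layout, for KO minus control, KO + H-151 minus KO and KO + H-151 minus control; filled red points passed an adjusted p of 0.05. The rises of the left panel, up to 4.28 for Trim21, lie among the genes grouped as PRY-SPRY, Trim56, Trim36 and Trim14. In the right panel 4 genes are filled, between -0.56 (Trim59) and 0.39 (Trim24).

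KO + H-151 against control left few members called. Trim24 rose by 0.39 (adjusted p = 0.00532), and Trim12c, Trim56 and Trim59 fell, so that 1 of 40 was higher and 3 lower beside 11.5% and 11.4% of all genes; 36 did not pass. The median log2 difference was 0.03, against 0.00 over all genes. Trim59 was at 34.9 and 41.7 scaled CPM in KO + H-151 and 57.0 and 56.2 in control, a difference of -0.56 ± 0.10 (adjusted p = 0.000868). Trim12c had a difference of -0.29 ± 0.08 (adjusted p = 0.0169). The call was lost without control replicate 1 (0.116), with DESeq2 (0.0531), without a variance trend (0.0634) and with only the groups compared (0.0609). The difference of Trim56 was -0.25 ± 0.07 (adjusted p = 0.017). Its call was lost without KO + H-151 replicate 1 (0.0658) or control replicate 1 (0.129) and without a variance trend (0.124).

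Some of the differences that missed the threshold had these values. For Trim21 the log2 difference was -0.32 ± 0.20, for Trim25 it was -0.21 (95% interval -0.37 to -0.04, adjusted p = 0.0645), and for Trim30a 0.14 ± 0.11. Trim6 stood higher, at 0.56 (95% interval 0.09 to 1.04, adjusted p = 0.0852), as did Trim65, at 0.57 (0.14 to 1.00, adjusted p = 0.0531). Trim32 stood lower, at -0.27 (95% interval -0.48 to -0.06, adjusted p = 0.0571). Macrophage markers were called higher here also, 15 of 16, beside 11.5% of all genes.

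Members and partners of the same machinery were counted from lists of genes named otherwise. Of the TRIM relatives Pml, Mid1 and Mid2, Pml (also called TRIM19, the organiser of nuclear bodies) was at 26.2 and 28.3 scaled CPM in KO + H-151, 183 and 187 in KO, and 33.9 and 30.9 in control. Its log2 difference was 2.48 ± 0.08 in KO against control (adjusted p = 6.49e-13) and -2.72 ± 0.08 with H-151 against KO (adjusted p = 1.61e-13), and neither Mid1 nor Mid2 was called.

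Of 21 E2 enzymes and signalling partners of TRIM ligases, 8 (38.1%) rose and 1 (4.76%, Ube2w) fell in KO against control, with a median of 0.14, beside 18.2% and 14.2% of all genes. In KO + H-151 against KO 8 (38.1%) fell and 1 (4.76%, Mavs) rose, beside 21.4% and 19.4% of all genes. Ddx58, which encodes RIG-I, was at 35.7 and 31.9 scaled CPM in KO + H-151, 426 and 400 in KO, and 56.8 and 62.8 in control, and its log2 difference of KO to control was 2.77 ± 0.08. Ube2l6, the E2 enzyme for ISG15, differed by 2.47 ± 0.18, Nmi, an interferon-inducible protein, by 2.11 ± 0.12, and the genes for the kinase TBK1 and for STING, Tbk1 and Sting1, by 0.98 ± 0.11 and 0.99 ± 0.10. Against KO, KO + H-151 differed by -3.57 in Ddx58, -2.93 in Ube2l6, -2.66 in Nmi, -0.80 in Tbk1 and -0.98 in Sting1.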

How the data were processed

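Messenger RNA was measured in 6 libraries. STAR 2.5.3a, featureCounts, edgeR and mm10 are named in the submitters' processing notes; the annotation, strand setting and filters are not given in the sources used here. The deposited values are a signal in scaled CPM, which the authors computed with an effective library size: per the file headers and values, columns summed to different totals. The test planned for CPM was kept. In each column 100.0% of values were whole multiples of 1 step within 0.0006, which recovered the reads.

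The analysis used log2(scaled CPM + 1). Tests took in the 13648 genes that reached 1 scaled CPM in 2 or more libraries and left out 58, by limma 3.58.1 in R 4.3.3, with 1 mean per group over all 6 libraries, a trended prior variance and Benjamini-Hochberg adjustment over all genes tested. Fold changes on this scale understate those of low genes; ratios of means are on the linear scale. The script was tested on simulated data.

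Members and lists, domain and role groups included, were chosen with earlier results of these data known. Named genes are members; values in every library are given for those past the threshold with an absolute log2 difference of at least 1, and for a few others. Genes outside the family come from fixed lists, 1 of which is not reported here. Positions are from GENCODE vM21 (GRCm38, the build of mm10), and promoters from RefSeq; 9 members had no promoter entry and are named only. Intervals are 95%; those of read ratios, and floors of 3 reads, cover counting error only.

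The alternatives tried were a pseudocount of 0.25 or 4, all genes without the filter, genes with a mean of at least 10, median, total-count and quantile scaling, only the groups compared, no variance trend, a replicate term, each library left out, a 2-fold minimum, a motif with 1 more spacer base, and edgeR 4.0.16 (quasi-likelihood) and DESeq2 1.42.0 on the recovered reads. A crossed replicate term was added after seeing the data.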

Additional observations from a re-analysis of the deposited data

How the results depend on the processing

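Of 43 member differences past the threshold, none changed sign in 790 recalculations; 38 of these lost the call, in 9 differences, which were Trim11, Trim27 and Trim59 in KO against control, Trim5, Trim6, Trim8 and Trim65 in KO + H-151 against KO, and Trim12c and Trim56 in KO + H-151 against control. Of 25 values not called that were recalculated in the same way, 11 gained a call in 42 of 459 recalculations and 14 recalculations turned the sign.

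In KO against control the count of members called lower, 4, became 10 under total-count scaling, 2 with DESeq2, 6 under median scaling, quantile normalization or the crossed replicate term, and 0 with a 2-fold minimum. The count called higher, 16, was 11 with a filter on a mean of 10, and both edgeR and DESeq2 called 16. In KO + H-151 against KO the count higher, 4, became 9 under total-count scaling, 7 under quantile normalization, 6 under median scaling or the crossed term, and 1 with a 2-fold minimum; 15 called lower became 10 with the filter on a mean of 10. In KO + H-151 against control the count higher, 1, became 2 with a pseudocount of 0.25 or 4, total-count scaling, no variance trend, edgeR or the crossed term, and 0 with a 2-fold minimum. The count lower, 3, became 5 under median scaling, quantile normalization or the crossed term, 1 without the variance trend, 2 with DESeq2 or only the groups compared, and 0 with a 2-fold minimum. The cause was not tested.

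With each library left out in turn the counts ran between 11 and 16 higher and between 2 and 5 lower in KO against control, between 2 and 4 higher and between 11 and 16 lower in KO + H-151 against KO, and between 1 and 2 higher and between 1 and 4 lower in KO + H-151 against control. The 11 arose without KO replicate 1 or 2, where Trim6, Trim14, Trim30c and Trim36 no longer pass the filter and Trim11 lost its call. Without control replicate 1, 1 member was lower in KO + H-151 than in control.

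Signs that turned, all in values not called, were for KO + H-151 against control Trim16 at -0.02 under median scaling and -0.03 under quantile normalization. With a library left out the range was -0.05 to 0.20 for Trim5, -0.03 to 0.06 for Trim16, -0.14 to 0.06 for Trim26, -0.01 to 0.30 for Trim30a, 0.00 to 0.09 for Trim30c, -0.02 to 0.20 for Trim30d and -0.36 to 0.11 for Trim34a. Under total-count scaling Trim11 was at 0.01 in KO + H-151 against KO and Trim28 at -0.10 in KO against control, the second at -0.09 under quantile normalization.

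The labels do not say whether same-numbered libraries belong together. Their deviations correlated at -0.128 (KO + H-151 and KO), 0.154 (KO + H-151 and control) and -0.0676 (KO and control), which cannot settle it. With the replicate block 16 members were higher and 4 lower in KO against control, 4 and 15 in KO + H-151 against KO, and 1 and 3 in KO + H-151 against control. The crossed pairing gave 17 and 6, 6 and 16, and 2 and 5. Few reads limit the precision of low members, such as Trim6 with 25 in KO + H-151, 44 in KO and 6 in control. Letting the motif spacer vary by 1 base left 61.5% of rising members with a match and raised the share of all genes to 6.90%.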
